A study of Mus musculus with 20 samples.

Results

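Salivary glands of C57BL/6J mice aged 16 weeks were compared with glands of mice aged 4 weeks, the widest span of age in a series of 20 arrays with 5 mice at each of 4, 8, 12 and 16 weeks. The 10 arrays compared are those whose titles give 16 weeks (5 mice) or 4 weeks (5 mice), while the spread behind each test was estimated from all 20 arrays. All mice were of the same inbred strain, with no treatment named, were labelled male, and served as the healthy controls of a strain that develops autoimmune disease of these glands. Glands were freed of lymph nodes, without word on which of the salivary glands were taken, and RNA of each mouse was measured on its own Affymetrix 3′ expression array. Values are log2 signals, so that a difference of 1 is a doubling and all rises and falls are on that scale, and each of 18194 genes is represented by its brightest probe set.

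The salivary gland makes saliva in acinar cells, which fill their endoplasmic reticulum (ER) with proteins for secretion. In rodents, cells of the granular convoluted tubules between acini and excretory ducts also store and release growth factors and kallikreins, and these tubules mature around puberty under the control of androgens and thyroid hormone. Cells that make much secretory protein need amino acids, charged tRNAs and ER chaperones. ATF4, a transcription factor translated when amino acids run short or proteins misfold, activates genes of serine synthesis, amino acid uptake and tRNA charging, and ATF6 and XBP1 activate ER chaperones. Whole glands were measured, so fewer cells of a type and less RNA per cell cannot be told apart.

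Genes of the ATF4 response and of ER folding were among those lower at 16 weeks, and some of them carry a known motif at the promoter. The letters TGATGNAA on either strand, the core of the composite element bound by ATF4 and C/EBP proteins, are shown in capitals in stretches of mouse promoters from RefSeq (GRCm38.p6), each read along the strand of its gene. They are shown because these 4 genes are the members of the ATF4 list called lower at 16 weeks that hold the letters. The stretch searched ran from 250 bases before to 50 bases after the start of the gene.
Asns, chr6:7693195-7693262, minus strand: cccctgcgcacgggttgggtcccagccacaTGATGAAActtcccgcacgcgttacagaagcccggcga
Chac1, chr2:119351019-119351086, plus strand: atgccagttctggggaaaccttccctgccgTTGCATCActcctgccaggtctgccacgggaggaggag
Herpud1, chr8:94386287-94386354, plus strand: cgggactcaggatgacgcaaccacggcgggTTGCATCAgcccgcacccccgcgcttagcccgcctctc
Trib3, chr2:152344011-152344076, minus strand: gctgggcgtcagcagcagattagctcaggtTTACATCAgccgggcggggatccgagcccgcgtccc

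The ER stress response element, CCAAT and CCACG with 9 bases of any kind between them on either strand, is the motif of ATF6 with NF-Y. It is in capitals in promoters of the 4 members of the ER list called lower at 16 weeks that hold it. For Hsp90b1 1 copy is shown.
Calr, chr8:84847045-84847123, minus strand: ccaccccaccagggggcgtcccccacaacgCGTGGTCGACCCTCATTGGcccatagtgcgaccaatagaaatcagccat
Derl3, chr10:75893212-75893290, plus strand: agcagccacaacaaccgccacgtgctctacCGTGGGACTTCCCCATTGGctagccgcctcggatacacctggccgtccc
Dnajc3, chr14:118937797-118937875, plus strand: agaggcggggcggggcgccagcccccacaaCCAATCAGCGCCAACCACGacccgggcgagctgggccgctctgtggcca
Hsp90b1, chr10:86705503-86705581, minus strand: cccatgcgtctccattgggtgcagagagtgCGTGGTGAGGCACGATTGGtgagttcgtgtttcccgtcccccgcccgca

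The ATF4 letters were in 8 of 26 members of the ATF4 list with a promoter in the table, and in 4.51% of all 27025 genes with one. Of the 17 members called lower, 4 held the letters, against 4 of the 9 not called lower. Those 4 uncalled genes were Nupr1 (-1.33), Atf3 (-0.26), Vldlr (0.24) and Slc7a11 (0.44). The ER element was in 8 of 35 members of the ER list and in 0.137% of all genes. It was in 4 of 16 members called lower and 4 of 19 not called. Genes not called were not thereby unchanged. The 4 uncalled ER genes with the element all had negative values, Hspa5 -1.86, Canx -1.74, Creld2 -1.51 and Pdia6 -0.94. Among all measured genes called lower at 16 weeks, 3.9% held the ATF4 letters and 0.868% the ER element, against 3.24% and 0.138% of all measured genes. Both lists were drawn up by known function, so their shares beside those of all genes do not bear on age. A match says only that the letters are there.

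The arrays were first checked against their labels. Xist, the transcript of the inactive X chromosome, had log2 signals of 9.08 to 10.4 at 16 weeks and 8.96 to 10.4 at 4 weeks, and was above the 96th percentile of genes on all 20 arrays. The Y-linked gene Eif2s3y was near the floor in every array, at 2.07 to 2.57 at 16 weeks and 2.08 to 2.47 at 4 weeks. Of the other Y-linked genes measured, Kdm5d had 3.99 to 4.56 at 16 weeks and 3.65 to 4.35 at 4 weeks, and Uty had 5.15 to 5.49 at 16 weeks and 4.58 to 5.17 at 4 weeks, within the 12.4th to 31.2nd and the 30.9th to 59.4th percentiles over all arrays. Xist and Eif2s3y go against the label male in both groups alike, so no result could be given without such arrays. Uty was not near the floor on its brightest probe set, but its other probe sets averaged 2.51, 2.04 and 2.58 over all 20 arrays. Those of Kdm5d averaged 3.28 and 3.56. The glands expressed Aqp5, the acinar water channel, Pip, a salivary protein, and Klk1, a duct kallikrein, above the 97th percentile in all arrays, while Krt19, a duct keratin, stayed below the 22nd percentile.

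Products of particular glands varied between mice of the same age. Amy1, salivary amylase, had log2 signals of 9.37, 4.10, 4.64, 4.71 and 12.4 at 16 weeks, against 11.8, 5.53, 5.88, 8.83 and 11.7 at 4 weeks. Bpifa2, a secreted parotid protein, had 11.8, 7.39, 7.47, 6.88 and 13.3 at 16 weeks, against 12.8, 8.56, 12.8, 12.9 and 13.2 at 4 weeks. Dcpp1, a product of sublingual and submandibular glands, had 4.58, 4.51, 4.33, 4.31 and 5.98 at 16 weeks, against 5.55, 3.84, 8.25, 8.74 and 8.89 at 4 weeks. For Amy1 and Bpifa2 some mice were high and others low at both ages, for Dcpp1 the 3 high mice were all at 4 weeks, the ages overlapped for all 3 genes, and none of them was called (limma, adjusted p = 0.559, 0.290 and 0.122). The part of gland composition in the results below was not tested.

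At an adjusted p under 0.05, limma called 92 genes higher (0.506% of those tested) and 568 lower (3.12%) at 16 than at 4 weeks. The ages did not overlap for 259 genes higher (1.42%) and 300 lower (1.65%), and without the trend described next for 326 (1.79%) and 462 (2.54%). Bright genes were lower, with a median log2 fold change of 0.05 in the dimmest decile of genes and of -0.55 in the brightest. Over all genes, which do not count as replicates of each other, the change correlated with mean signal at r = -0.360, and at r = 0.057 once the trend had been removed from each array by lowess. Without the trend, 242 genes were called higher (1.33%) and 542 lower (2.98%). The same 83 genes were higher and the same 443 lower in both analyses, while 125 genes were lower only with the trend and 159 higher only without it. Lower genes thus made up 86.1% of calls with the trend and 69.1% without it.

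**Figure D1:**
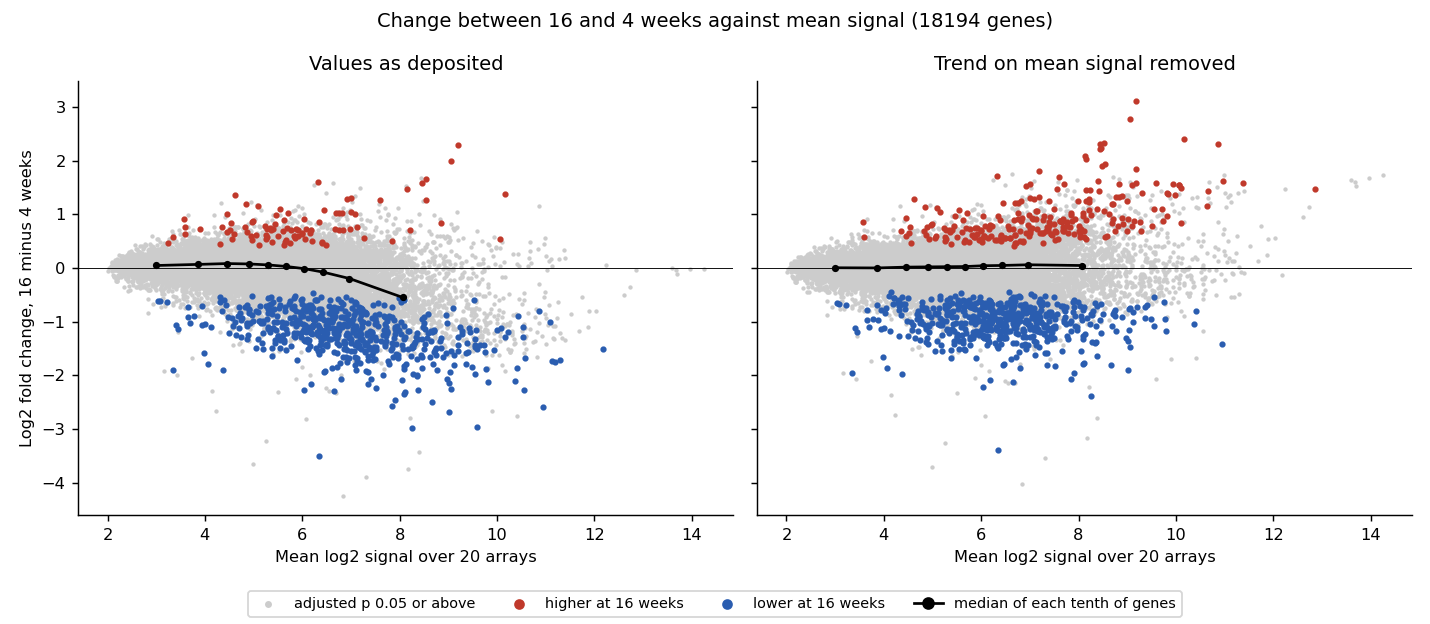
Log2 fold change of each gene (16 minus 4 weeks, vertical axis) against its mean log2 signal over 20 arrays (horizontal axis), with values as deposited on the left and with the trend removed on the right; red and blue points are genes called higher and lower at 16 weeks, and the black line joins the medians of deciles of genes. On the left the line falls to -0.55 in the brightest decile, and on the right it stays near 0.

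The width of the signal distribution was measured beside these calls, and a link between them was not tested. The SD of log2 signal within an array was 1.74, 1.44, 1.52, 1.38 and 1.46 at 16 weeks, against 1.55, 1.55, 1.66, 1.72 and 1.90 at 4 weeks. The means were 1.51 ± 0.139 at 16 weeks and 1.68 ± 0.145 at 4 weeks (SD, n = 5 each), and differed by -0.164 (two-sided exact permutation test, p = 0.0952, adjusted p = 0.286 over 3 measures). The 3′ minus 5′ difference of the Gapdh control probe sets, a measure of RNA integrity, averaged 2.40 at 16 weeks against 2.37 at 4 weeks (p = 0.921 by exact permutation). That of Actb averaged 3.04 at 16 weeks against 2.51 at 4 weeks (p = 0.341 by exact permutation), and reached 4.21 in mouse 1 at 16 weeks. These tests compare the ages and do not say that the RNA was intact. Once the spread of signal was a covariate, 66 genes (0.363%) were called lower and 82 (0.451%) higher. The count of calls also turned on single mice, since leaving out any 1 of the 10 moved it by over 1.5 times, with 3003 genes called without mouse 1 at 16 weeks and 81 without mouse 2 of that age. When each of the 10 mice was left out in turn, 58 genes were lower (0.319%) and 10 higher (0.055%) every time, and without the trend 128 (0.704%) and 40 (0.22%).

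The ATF4 response and serine synthesis had a larger share of genes called lower (63.3%, against 3.12% of all genes) than any other list examined. The lists were chosen with earlier results of these data known, so this rank is not a test. Of 30 listed genes measured, 19 were lower and none higher at 16 weeks, with a median log2 fold change of -1.32 against 0.01 for all genes. Without the trend 16 were lower, with a median of -1.003 against 0.02. In the fit with the spread as covariate 12 were lower, and 10 were lower whichever mouse was left out.

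Psat1, an enzyme of serine synthesis, showed the largest decrease of any gene called. Its log2 signals were 5.28, 3.80, 4.61, 3.55 and 4.51 at 16 weeks, against 7.37, 7.13, 7.90, 8.45 and 8.40 at 4 weeks, with no overlap. The means of 4.35 ± 0.69 at 16 weeks and 7.85 ± 0.59 at 4 weeks differed by -3.50 ± 0.35 (SE, limma adjusted p = 2.64e-05), an 11.3-fold decrease. Along the same pathway Psph, which releases serine from phosphoserine, fell by 1.499 (adjusted p = 0.00762), and Shmt2, which passes a carbon unit of serine to folate in mitochondria, fell by 1.90 (adjusted p = 0.00502). Mthfd2, the next mitochondrial folate enzyme, had 6.68, 5.97, 6.93, 6.48 and 6.07 at 16 weeks, against 8.35, 8.14, 8.46, 9.09 and 9.25 at 4 weeks, a difference of -2.23 ± 0.23 (limma adjusted p = 2.64e-05). All 5 mice at 16 weeks lay below all 5 at 4 weeks for Psat1, Psph and Mthfd2. Phgdh, which opens serine synthesis, depended on the probe set. On its brightest the log2 fold change was -0.59 (adjusted p = 0.0300), the ages overlapped, and without the trend it was 0.30 (adjusted p = 0.527), while its other 3 probe sets were at -1.70, -1.47 and -0.32 with the trend.

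Amino acid transport and synthesis fell alongside. Slc7a5 and Slc3a2 encode the 2 chains of the transporter LAT1 for large neutral amino acids. Slc7a5 had 7.37, 6.57, 6.88, 6.26 and 6.55 at 16 weeks, against 8.99, 8.50, 9.27, 9.51 and 9.70 at 4 weeks, and differed by -2.47 ± 0.27 (limma adjusted p = 8.49e-05). Slc3a2 had 8.51, 7.36, 7.43, 6.70 and 7.35 at 16 weeks, against 9.64, 9.01, 10.1, 10.3 and 10.8 at 4 weeks, and differed by -2.50 ± 0.41 (limma adjusted p = 0.00502). Neither chain had an overlap between the ages. Asns, which makes asparagine, fell by 1.84 (adjusted p = 0.00803), Aldh18a1, which opens proline synthesis, fell by 1.94 (adjusted p = 0.00691), and Gpt2, mitochondrial alanine aminotransferase, fell by 1.99 (adjusted p = 0.0176). The cationic transporter Slc7a1 fell by 0.87 (adjusted p = 0.0465) and Cth, which makes cysteine, fell by 1.25 (adjusted p = 0.0246).

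Chac1, which degrades glutathione and is a sensitive target of ATF4, had log2 signals of 7.58, 6.33, 7.22, 6.71 and 7.21 at 16 weeks, against 9.25, 8.82, 8.48, 10.5 and 9.73 at 4 weeks. The ages did not overlap, and the difference was -2.34 ± 0.40 (limma adjusted p = 0.00691). Trib3, a pseudokinase that feeds back on ATF4, fell by 1.57 (adjusted p = 0.00870), and Ddit4, an inhibitor of mTORC1, fell by 2.16 (adjusted p = 0.0227). Atf4 itself fell by 1.13 (adjusted p = 0.0166), its partner Cebpg fell by 1.45 (adjusted p = 0.0220) and the related factor Atf5 fell by 1.30 (adjusted p = 0.0135). Without the trend Atf4 was no longer called, with a log2 fold change of -0.47 (adjusted p = 0.0580). With the trend the dimmest probe sets of Atf4 and Cebpg were at 0.30 and 0.41. Among the 11 members not called were Ddit3 (-0.53, adjusted p = 0.157) and Atf3 (-0.26, adjusted p = 0.374), transcription factors of prolonged stress, and Slc7a11, the cystine transporter, at 0.44 (adjusted p = 0.0748). Azin1, the antizyme inhibitor that raises polyamine synthesis, fell by 2.57 (adjusted p = 0.00335), with the same sign in 2 of 3 probe sets.

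**Figure D2:**
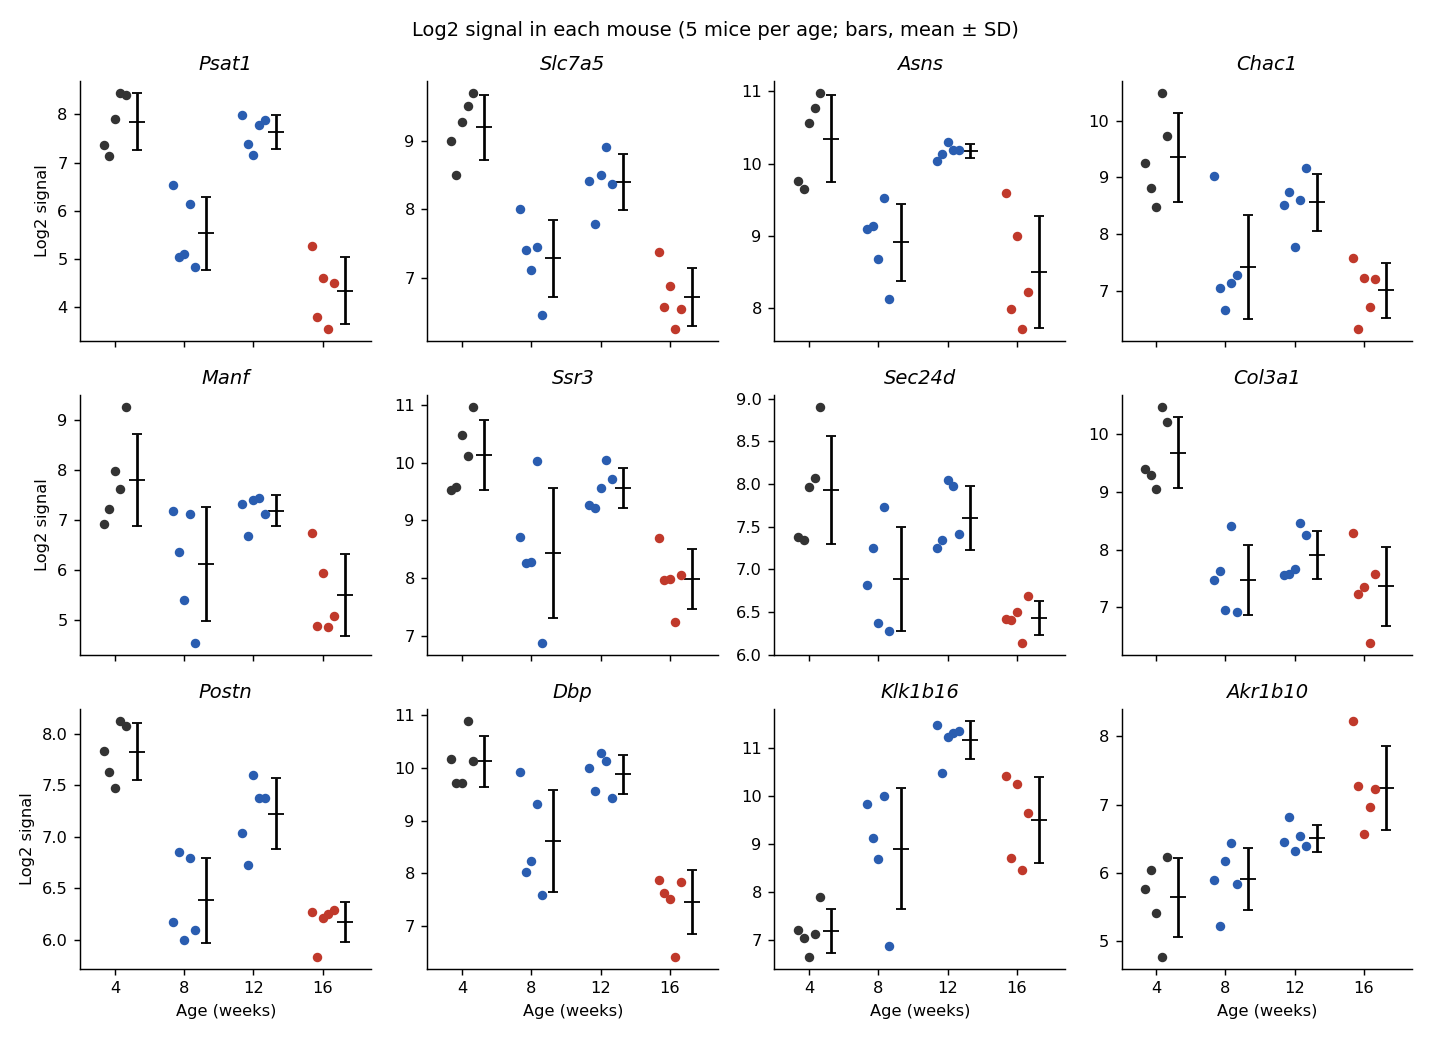
Log2 signal (vertical axes) of 12 genes in each mouse at 4, 8, 12 and 16 weeks (horizontal axes); points are mice, and bars give the mean ± SD of 5 mice. For all 12 genes the points at 16 weeks (red) and at 4 weeks (black) do not overlap, with Klk1b16 and Akr1b10 higher at 16 weeks and the other 10 lower.

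Several enzymes that charge tRNAs in the cytosol were lower. Of 19 cytosolic aminoacyl-tRNA synthetases, 7 were lower (36.8%, against 3.12% of all genes) and none higher at 16 weeks (median -1.03). Without the trend 6 were lower (31.6%, against 2.98%, median -0.64). In the fit with the spread as covariate 4 were lower (median -0.28), and 2 were lower whichever mouse was left out. Of 16 mitochondrial synthetases none was called in either analysis (median -0.11), and 1 was lower at an unadjusted p under 0.05 (limma). Both lists were chosen after values of these genes had been seen, and the cytosolic genes were brighter, with a median at the 87.0th percentile of signal against the 47.7th for the mitochondrial ones. Rars, for arginine, had 6.75, 6.87, 6.40, 6.06 and 6.27 at 16 weeks, against 7.64, 7.08, 8.18, 8.32 and 8.54 at 4 weeks, a difference of -1.48 ± 0.23 without overlap (limma adjusted p = 0.00335). Gars (-1.84), Tars (-1.71), Iars (-1.68), Nars (-1.56), Mars1 (-1.33) and Aars (-1.07) also fell, with adjusted p-values between 0.0122 and 0.0459. For these 6, mouse 1 was the only mouse at 16 weeks within the range of the 4-week mice. Farsa (0.43) and Farsb (0.02), both for phenylalanine, and Qars (0.03), for glutamine, were not called on their brightest probe sets, while other probe sets reached -0.47 for Farsa, -1.30 for Farsb and -1.01 for Qars.

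**Figure D3:**
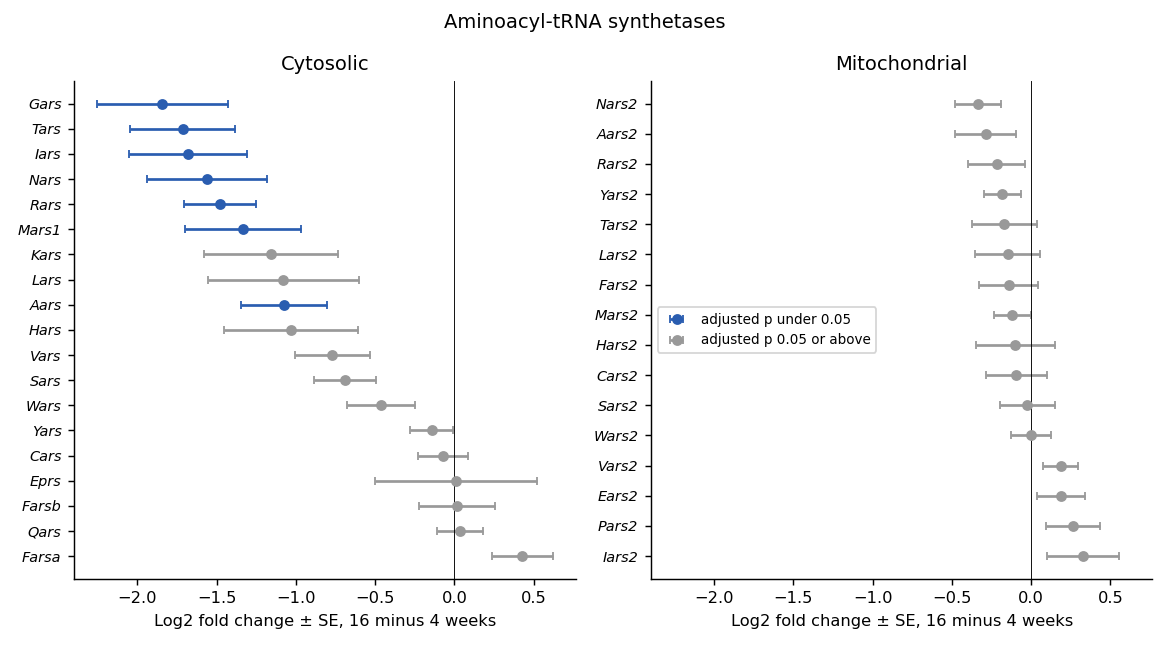
Log2 fold change ± SE (16 minus 4 weeks, horizontal axes) of each cytosolic (left) and mitochondrial (right) aminoacyl-tRNA synthetase; blue points have an adjusted p under 0.05. The 7 blue points are all cytosolic and lie between -1.07 and -1.84.

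Translation initiation factors, a list also added later, had 6 of 31 members lower (19.4%, against 3.12% of all genes, median -0.98). Without the trend 6 were lower too (19.4%, against 2.98%, median -0.53). The list is bright, at a median of the 92.5th percentile of signal. In the fit with the spread as covariate 3 were lower (median -0.17). Eif2s2 and Eif2s3x encode the beta and gamma subunits of eIF2, which brings the initiator tRNA to the ribosome. Eif2s2 had 8.52, 7.09, 7.44, 6.97 and 7.32 at 16 weeks, against 8.91, 8.88, 9.87, 9.69 and 10.1 at 4 weeks, and fell by 2.02 (adjusted p = 0.00427). Eif2s3x fell by 1.26 (adjusted p = 0.0110) and Eif3m, of the eIF3 scaffold, fell by 1.64 (adjusted p = 0.0145). Both eIF2 subunits were called whichever mouse was left out. The dimmest probe set of Eif2s2 was at 0.53, and its others were negative.

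The ER folding and secretory list had 19 of 45 members lower (42.2%, against 3.12% of all genes) and none higher, with a median log2 fold change of -1.37. These are bright genes, at a median of the 94.6th percentile of signal, and without the trend the median was -0.70 with 16 members lower. In the fit with the spread as covariate 6 were lower, and 5 were lower whichever mouse was left out.

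All 4 subunits of the translocon-associated protein complex, which helps new chains cross the ER membrane, were lower on their brightest probe sets. Ssr3 had 8.69, 7.96, 7.99, 7.23 and 8.06 at 16 weeks, against 9.52, 9.57, 10.5, 10.1 and 10.97 at 4 weeks, a difference of -2.15 ± 0.41 (limma adjusted p = 0.0111). Ssr2 fell by 2.07 (adjusted p = 0.0110), Ssr1 fell by 1.497 (adjusted p = 0.00800) and Ssr4 fell by 1.88 (adjusted p = 0.0426). The other probe sets of Ssr4 were at 0.39 and -0.21. None of the 4 had an overlap between the ages. Manf, a secreted ER stress protein, had 6.74, 4.87, 5.93, 4.87 and 5.08 at 16 weeks, against 6.91, 7.21, 7.98, 7.61 and 9.26 at 4 weeks, a difference of -2.29 ± 0.48 (limma adjusted p = 0.0168). Pdia3, a disulfide isomerase for glycoproteins, fell by 2.27 (adjusted p = 0.0113), but its other probe set had the opposite direction.

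Several chaperones were lower too, mostly with overlapping ages. Hsp90b1, the ER form of Hsp90, had 9.25, 7.42, 8.24, 6.67 and 7.57 at 16 weeks, against 8.86, 9.16, 9.60, 9.54 and 10.9 at 4 weeks, and fell by 1.79 (adjusted p = 0.0422). The cochaperones Dnajb9 (-1.94, adjusted p = 0.0185) and Dnajc3 (-1.77, adjusted p = 0.0220) fell, and Herpud1, which serves ER-associated degradation and is also on the ATF4 list, by 2.26 (adjusted p = 0.0159). Calr, the calcium-binding chaperone of the ER, fell by 1.29 (adjusted p = 0.0456), P4hb, a disulfide isomerase, fell by 1.75 (adjusted p = 0.0444) and Derl3, a channel component of degradation, fell by 1.22 (adjusted p = 0.0355). These last 3 lost their call without the trend, at -0.20, -0.54 and -0.39. Hspa5, the main ER chaperone and named after its values were seen, missed the threshold at -1.86 (adjusted p = 0.0601), with 10.5 in mouse 1 at 16 weeks above 2 mice at 4 weeks. Creld2, an ER stress protein, was called only without the trend (-1.51, adjusted p = 0.0469).

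Some subunits of vesicle coats and of the glycosylation machinery were lower. Of 19 COPI and COPII coat subunits, which form vesicles between ER and Golgi, 9 were lower (47.4%, against 3.12% of all genes, median -1.21). Without the trend 7 were lower (36.8%, against 2.98%, median -0.53). The median of the list was at the 91.7th percentile of signal. Sec24d, a cargo adaptor of COPII, had 6.41, 6.40, 6.49, 6.14 and 6.68 at 16 weeks, against 7.38, 7.34, 7.96, 8.07 and 8.91 at 4 weeks, a difference of -1.51 ± 0.29 (limma adjusted p = 0.0112). Sec23b, its partner in the coat, fell by 2.08 (adjusted p = 0.0177), and Lman1, a cargo receptor, fell by 1.89 (adjusted p = 0.0191). Of 12 oligosaccharyltransferase subunits, which attach N-glycans, 5 were lower (41.7%, against 3.12% of all genes, median -1.21). Without the trend 4 were lower (33.3%, against 2.98%, median -0.68). Their median was at the 91.3rd percentile of signal. Ostc fell by 1.53 (adjusted p = 0.0144), on 1 of its 2 probe sets, and the catalytic subunit Stt3a fell by 1.55 (adjusted p = 0.0423). The dimmest probe sets of Lman1 and Stt3a were at 0.60 and 0.30. In the fit with the spread as covariate no gene of either list was called (medians -0.41 for coats and -0.51 for oligosaccharyltransferase), and 1 coat gene and no oligosaccharyltransferase gene were lower whichever mouse was left out. Neither list was drawn up before values of these genes had been seen.

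Ribosomal protein and respiratory chain genes bore the trend with few calls. Of 44 cytosolic ribosomal proteins none was called, although 43 had a negative log2 fold change and the median was -1.13. Without the trend their median was -0.20. Of 71 genes of oxidative phosphorylation 2 were lower (2.82%, against 3.12% of all genes, median -0.97), and 1 without the trend (median -0.23). Both lists lie high in the signal range, at median percentiles of 99.4 and 96.0. At an unadjusted p under 0.05 (limma), 34 of the ribosomal and 46 of the respiratory chain genes were lower.

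**Figure D4:**
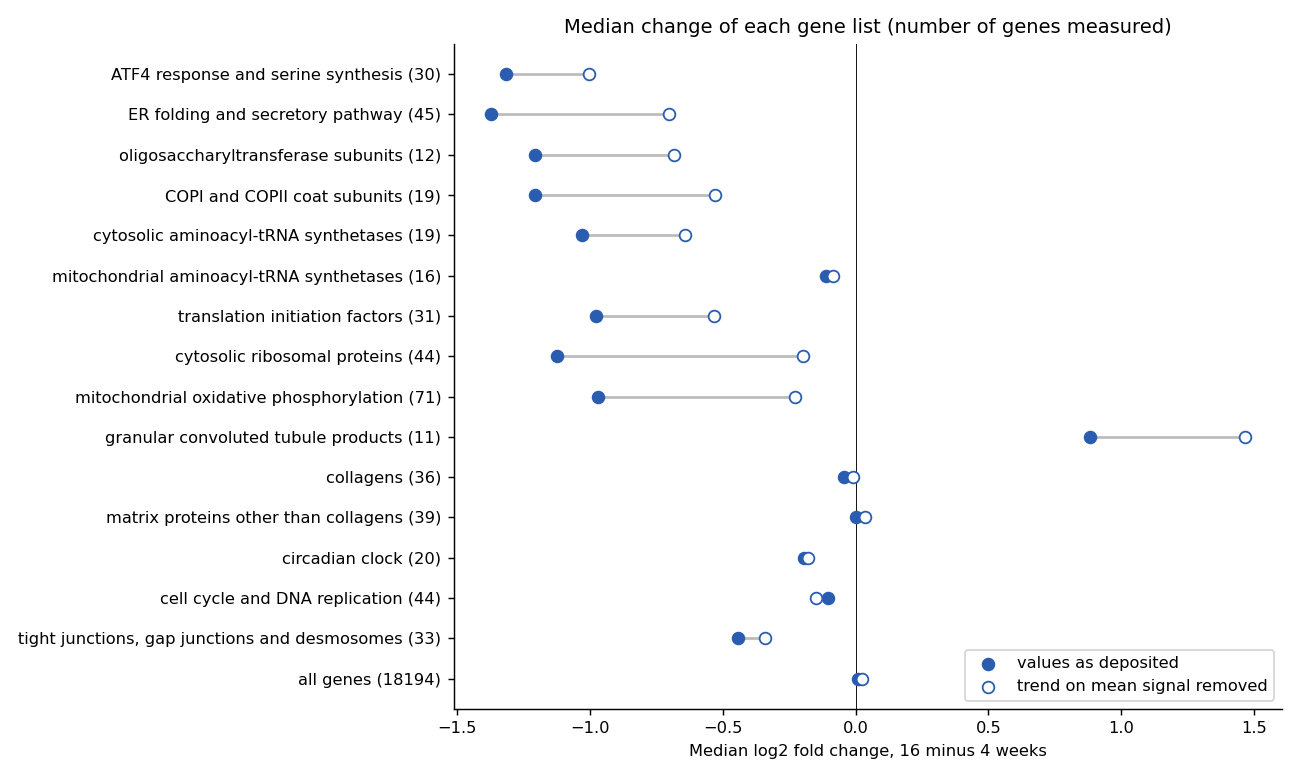
Median log2 fold change (16 minus 4 weeks, horizontal axis) of each gene list (rows, with the number of genes measured), with values as deposited (filled) and with the trend removed (open). Ribosomal and respiratory chain genes move close to 0 once the trend is removed, ATF4 genes stay at -1.003, and granular tubule products move up to 1.47.

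Several kallikreins of the granular convoluted tubules rose. Of 11 listed genes measured, 4 were higher (36.4%, against 0.506% of all genes) and none lower at 16 weeks (median 0.88). Without the trend 9 were higher (81.8%, against 1.33% of all genes, median 1.47). The list is bright, at a median of the 97.8th percentile of signal. In the brightest decile of all genes 12 of 1820 were called higher with the trend and 116 without it. All listed genes called in either analysis were kallikreins. The listed products measured outside that family, Egf (-0.15) and Crisp3 (0.09 with the trend), were called in neither. The Klk1b kallikreins lie on chromosome 7, their sequences are near-identical, and probes may bind more than 1 of them, so that levels of single members are uncertain.

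Klk1b16 had log2 signals of 10.4, 8.70, 10.3, 8.46 and 9.65 at 16 weeks, against 7.22, 7.06, 6.66, 7.14 and 7.90 at 4 weeks. The means of 9.50 ± 0.89 at 16 weeks and 7.19 ± 0.45 at 4 weeks differed by 2.30 ± 0.47 (limma adjusted p = 0.0153). Klk1b5 had 10.1, 8.997, 9.74, 8.28 and 9.23 at 16 weeks, against 6.81, 7.47, 7.21, 7.40 and 7.42 at 4 weeks, and rose by 2.00 ± 0.40 (limma adjusted p = 0.0150). Neither gene had an overlap between the ages, and both were called whichever mouse was left out. Klk1b21 rose by 1.47 (adjusted p = 0.0224), Klk1b1 by 1.29 (adjusted p = 0.0208), the pseudogene Klk1b7-ps by 1.16 (adjusted p = 0.0150) and Egfbp2, a kallikrein that binds epidermal growth factor, by 1.39 (adjusted p = 0.0319). Klk1, the tissue kallikrein, was at -0.03 (adjusted p = 0.970) with the trend and at 1.48 (adjusted p = 0.0222) without it, and other settings gave either sign. Klk1b8, Klk1b11, Klk1b24 and Klk1b27 were called higher only without the trend. Egf, the growth factor stored in the same cells, was at -0.15 (adjusted p = 0.844) and 0.61 (adjusted p = 0.158), likewise with either sign.

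Genes outside the kallikrein family rose as well. Akr1b10, an aldose reductase family member, had 8.23, 7.27, 6.56, 6.96 and 7.23 at 16 weeks, against 5.76, 6.04, 5.42, 4.77 and 6.23 at 4 weeks, and rose by 1.61 ± 0.28 (limma adjusted p = 0.00827). Mitochondrial carriers also rose, Slc25a27, an uncoupling protein relative, by 1.09 (adjusted p = 0.00840) and Slc25a34 by 1.08 (adjusted p = 0.0227), and Agfg2 rose by 1.02 (adjusted p = 0.00827). Akr1b10, Slc25a27 and Agfg2 were called whichever mouse was left out. Pigr, the receptor that carries IgA into saliva, was at 0.75 (adjusted p = 0.279) with the trend and at 1.55 (adjusted p = 0.00123) without it. Pabpn1 (2.31), Erdr1 (1.86), Psg28 (1.33) and Map3k12 (1.33) were likewise called higher only without the trend.

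Of 22 genes of acinar and other saliva secretory products 2 were lower (9.09%, against 3.12% of all genes) and none higher (median -0.67). Without the trend 1 was lower and 1, Pigr, higher (4.55% each, against 2.98% and 1.33% of all genes, median -0.54). The list is bright, at a median of the 81.5th percentile of signal. Smgc, a mucin-like product that young submandibular glands make in quantity, had 10.9, 9.45, 11.1, 9.58 and 10.01 at 16 weeks, against 12.0, 11.9, 12.0, 11.9 and 11.9 at 4 weeks. The 5 mice at 4 weeks had an SD of 0.07 and lay above all mice at 16 weeks, and the difference was -1.74 ± 0.26 (limma adjusted p = 0.00230). Without the trend it was -0.53 (adjusted p = 0.201). Lpo, salivary lactoperoxidase, fell by 2.10 (adjusted p = 0.0234) with overlapping ages, and fell by 1.04 (adjusted p = 0.0322) without the trend.

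Fibrillar and basement membrane collagens fell in part. Of 36 collagen genes 6 were lower (16.7%, against 3.12% of all genes) and 1 higher (2.78%, against 0.506%), with a median of -0.04. Without the trend 6 were lower (16.7%, against 2.98%) and 2 higher (5.56%, against 1.33%). Col3a1, a main fibrillar collagen, had 8.29, 7.24, 7.34, 6.38 and 7.58 at 16 weeks, against 9.40, 9.29, 9.05, 10.5 and 10.2 at 4 weeks, a difference of -2.32 ± 0.34 without overlap (limma adjusted p = 0.00230). Its fibrillar partners Col1a1 (-0.79, adjusted p = 0.0452) and Col5a2 (-0.76, adjusted p = 0.0191) fell, as did the basement membrane chains Col4a2 (-1.27, adjusted p = 0.0189) and Col4a5 (-1.15, adjusted p = 0.0110). The other probe set of Col5a2 had the opposite direction. Col15a1 fell by 0.74 (adjusted p = 0.0354), and the cartilage collagen Col9a1 rose by 0.72 (adjusted p = 0.0456).

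Of 39 other matrix proteins 4 were lower (10.3%, against 3.12% of all genes, median 0.00). Postn, periostin, had 6.27, 5.83, 6.21, 6.25 and 6.29 at 16 weeks, against 7.83, 7.63, 7.47, 8.13 and 8.08 at 4 weeks, with means of 6.17 ± 0.19 at 16 weeks and 7.83 ± 0.28 at 4 weeks (difference -1.66 ± 0.19, limma adjusted p = 0.000160). Lum (-0.81, adjusted p = 0.0407) and Fmod (-0.54, adjusted p = 0.0403), proteoglycans of collagen fibrils, and Nid1 (-0.81, adjusted p = 0.0313), of the basement membrane, also fell. Among 22 genes of collagen processing Lox, which crosslinks collagen, fell by 0.89 (adjusted p = 0.0153), beside P4hb. Fmod was not called without the trend. Col3a1, Col4a5 and Postn were called whichever mouse was left out. Of 19 fibroblast markers the 3 called lower were Col3a1, Col1a1 and Lum (15.8%, against 3.12% of all genes, median of the list -0.14).

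Some clock genes stood at other levels at 16 weeks. Of 20 measured, 5 were lower (25%, against 3.12% of all genes) and 1 higher (5%, against 0.506%). For 7 the ages did not overlap downwards, against 1.65% of all genes. Dbp, a transcription factor driven directly by the clock, had 7.87, 7.63, 7.51, 6.41 and 7.84 at 16 weeks, against 10.2, 9.72, 9.72, 10.9 and 10.1 at 4 weeks, a difference of -2.68 ± 0.37 (limma adjusted p = 0.00112). Usp2, a deubiquitinase under clock control, fell by 1.86 (adjusted p = 0.00335), Wee1, a clock-controlled kinase of the cell cycle, fell by 1.00 (adjusted p = 0.00362), Nr1d2, a repressor of the loop, fell by 1.41 (adjusted p = 0.0178) and Tef, a relative of Dbp, fell by 1.15 (adjusted p = 0.0164). Clock rose by 0.78 (adjusted p = 0.0160), with another probe set at -0.25 and the rest positive. Tef was not called without the trend, and its other 2 probe sets moved the opposite way, as did the second one of Nr1d2. Core members Arntl (0.29, adjusted p = 0.192), Per2 (-0.06, adjusted p = 0.859, with another probe set at -1.27) and Nr1d1 (-0.22, adjusted p = 0.436) were not called. The hour at which glands were taken is not given in the sources used here, and its part in these values was not tested.

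Of 44 cell cycle genes 3 were lower (6.82%, against 3.12% of all genes) and none higher (median -0.10). None of them was called in the fit with the spread as covariate or in every fit with 1 mouse left out. Mki67, a marker of dividing cells, fell by 0.75 (adjusted p = 0.0189), Pcna, the clamp of DNA polymerase, fell by 0.98 (adjusted p = 0.0302) and Rrm1, a subunit of ribonucleotide reductase, fell by 0.56 (adjusted p = 0.0356), the last on 1 of 3 probe sets. Of 33 genes of tight junctions, gap junctions and desmosomes 6 were lower (18.2%, against 3.12% of all genes, median -0.44). None was called lower in the fit with the spread as covariate. Among the 6 were the claudins Cldn3 (-1.09), Cldn8 (-1.04) and Cldn10 (-1.49) and the connexins Gjb1 (-1.37) and Gjb2 (-0.92). Without the trend Dsc2, a desmosomal cadherin, was the only one of the 6 still called (-0.92, adjusted p = 0.0127).

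Genes of other functions were also among the larger falls called. Phyh, which opens alpha oxidation of phytanic acid in peroxisomes, had 7.95, 7.21, 6.88, 6.55 and 7.08 at 16 weeks, against 8.51, 8.68, 11.9, 8.98 and 12.5 at 4 weeks, a difference of -2.98 ± 0.60 (limma adjusted p = 0.0150) in which 2 mice at 4 weeks stood apart. Mup5, a major urinary protein of saliva, fell by 2.59 (adjusted p = 0.0131), and Gpr155 fell by 2.12 (adjusted p = 0.00726). Dusp4, a phosphatase that turns off ERK, fell by 1.79 (adjusted p = 0.000964), and Alas1, which opens heme synthesis, fell by 1.93 (adjusted p = 0.0153).

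Few immune genes were called in these healthy glands. Of all genes 0.506% were called higher and 3.12% lower, and at such shares short lists hold few calls. None of 28 B and plasma cell genes, 27 macrophage and dendritic cell genes, 18 genes of antigen presentation or 35 interferon response genes was called with the trend. At an unadjusted p under 0.05 (limma), 1640 of all 18194 genes were higher and 2761 lower. By that measure the numbers higher and lower were 3 and 0 of the B cell genes and 5 and 0 of the T and NK cell genes. They were 4 and 3 of the macrophage genes, 2 and 4 of antigen presentation and 4 and 5 of the interferon response. Without the trend the macrophage list had 1 gene higher and 1 lower. Of 28 T and NK cell genes 1 was higher, Gzmb, a granzyme of cytotoxic cells, by 0.63 (adjusted p = 0.0452), and not without the trend (0.57, adjusted p = 0.0519). The median log2 fold changes of these lists lay between -0.09 and 0.16. Log2 fold changes were negative for 1 of 28 T and NK cell genes and 6 of 28 B cell genes. They were negative for 17 of 27 macrophage, 11 of 18 antigen presentation and 14 of 35 interferon genes, against 8935 of all 18194. No gene was called, with or without the trend, among markers of skeletal muscle (24 genes), adipocytes (18), endothelial cells (21), nerve (20) or red blood cells (7). At an unadjusted p under 0.05 (limma), between 2 and 5 genes of each of these lists differed.

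The levels at the ages between show when a difference was present. Comparisons of 8, 12 and 16 weeks with 4 weeks share the 4-week arrays, so their values are set side by side without a test of likeness. The median log2 fold change of the ATF4 genes was -1.28 at 8 weeks, -0.43 at 12 weeks and -1.32 at 16 weeks, and ER genes -0.88, -0.23 and -1.37. Psat1 averaged 7.85 at 4 weeks, then 5.53, 7.64 and 4.35 at the later ages. The spread of signal within arrays was likewise smaller at 8 and 16 weeks, with means of 1.68 at 4 weeks and then 1.498, 1.64 and 1.51, and its part in these levels was not tested. Col3a1 instead was already low at 8 weeks (7.48) and stayed low at 12 (7.90) and 16 weeks (7.37), against 9.69 at 4 weeks, and Dusp4 averaged 5.31 at 4 weeks, then 3.72, 3.695 and 3.52. Gpr155 was at its 4-week level of 10.3 until 12 weeks (10.7) and at 8.17 at 16 weeks. Granular tubule products were highest at 12 weeks, with medians of 0.64 at 8 weeks, 1.70 at 12 weeks and 0.88 at 16 weeks.

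**Figure D5:**
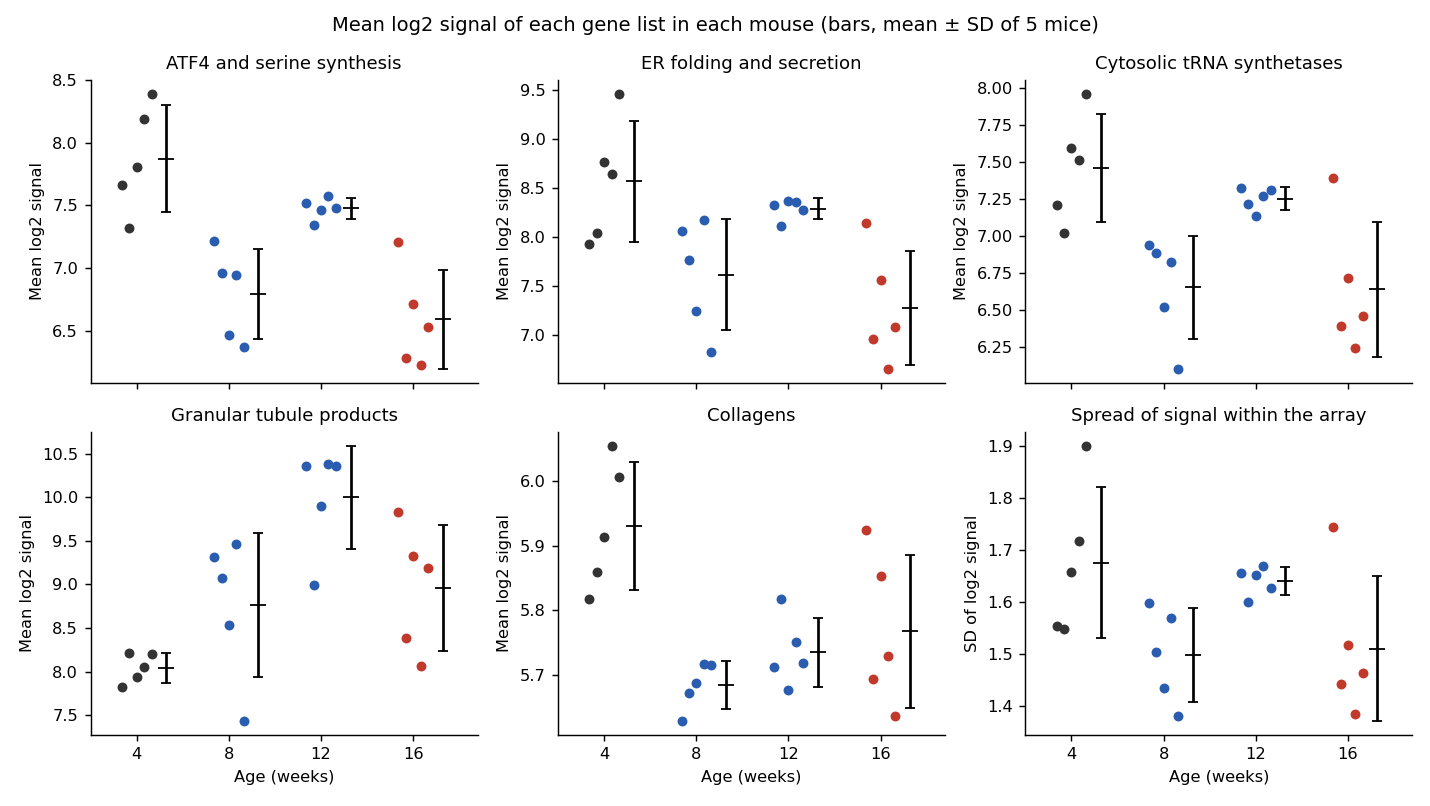
Mean log2 signal of 5 gene lists in each mouse, and the SD of log2 signal within each array (vertical axes), at 4, 8, 12 and 16 weeks (horizontal axes); points are mice and bars give the mean ± SD of 5 mice. ATF4, ER and synthetase genes average lower at 8 and 16 weeks than at 4 weeks, as does the spread of signal, and the collagen means of 5.64 to 5.92 at 16 weeks overlap those of 5.82 to 6.05 at 4 weeks.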

How the data were processed

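The values are log2 signals after RMA that the authors deposited for 45101 probe sets on 20 arrays of total RNA, 1 mouse each. Which arrays were normalized together is not given in the sources used here, and no depth applies to arrays. Of the probe sets 34958 carried 1 gene symbol, and the brightest of each gene over all arrays was kept (18194 genes). Dimmer probe sets of opposite sign are given for some genes and not for all. A linear model over all 20 arrays, with age as a factor of 4 levels, was fitted by limma (3.58.1, R 4.3.3), two-sided, with Benjamini-Hochberg adjustment over all genes and a threshold of 0.05. The trend was removed per array by lowess (span 0.3) of the deviation from the mean of 20 arrays. Sex and replicate numbers were taken from the labels, and p-values measure the spread between mice labelled as biological replicates. The comparison, the gene lists and the named genes were chosen with earlier results of these data known. The genes named are the 12 largest rises and falls among called genes whose ages do not overlap and whose probe sets agree in sign, with and without the trend, called members of lists, and up to 4 members of each list. Other members and gland markers given as values were chosen after their values were seen. The families added after values were seen are synthetases of both compartments, oligosaccharyltransferase, coats and initiation factors. Unnamed loci among these genes are not described. Alternatives were other normalizations, the spread as a covariate, other probe set rules, a filter at the 40th percentile, fewer arrays, robust variances, array weights, a block of replicate numbers and each mouse left out. No comparison of the authors' own and 0 columns of other series were used.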

Additional observations from a re-analysis of the deposited data

Results flagged for a closer look

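Single mice stood apart from the other 4 of their age in 12 of 244 sets of values examined, and about 1 set in 20 is marked in this way by chance. At 16 weeks mouse 1 was the highest for Aars (8.43, the next 7.48), Tars (6.33, next 5.10), Mup5 (11.2, next 9.51) and Col5a2 (6.39, next 5.78), and the lowest for Lox (3.82, next 4.34). Mouse 2 was the lowest at 16 weeks for Galnt12 (2.23, next 2.78) and Postn (5.83, next 6.21), mouse 4 for Dbp (6.41, next 7.51), and mouse 5 the highest for Dcpp1 (5.98, next 4.58). At 4 weeks mouse 5 was the highest for Edem2 (9.11, next 7.51), mouse 2 the lowest for Bpifa2 (8.56, next 12.8) and mouse 3 for Col1a1 (6.09, next 6.68).

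Of 10143 probe sets without a single gene symbol, which enter no result above, 285 were called higher and 95 lower at 16 than at 4 weeks when all 45101 probe sets were tested with limma.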

How the results depend on the processing

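The number of genes called moved with several settings. From 660 genes, the count was 148 with the spread as covariate, 75 in a fit of the 10 arrays alone, 1389 with array weights, 1225 when each probe set was tested on its own and 1257 without both arrays of highest spread, a choice made after seeing the data. Leaving out 1 mouse gave 81 to 3003 genes: 3003, 81, 318, 89 and 216 without mice 1 to 5 at 16 weeks, and 1025, 1204, 344, 103 and 91 without mice 1 to 5 at 4 weeks. Without the trend the count of 784 was 286 in the 10 arrays alone and 1359 with array weights, and 200 to 2649 with 1 mouse left out: 2649, 261, 383, 200 and 448 without mice 1 to 5 at 16 weeks, and 217 and 211 without mice 4 and 5 at 4 weeks. The cause was not tested. The share of lower calls, 86.1% with the trend, was 69.1% without it. The split was 237 higher and 542 lower with cyclic loess, 205 and 486 with quantile normalization, 82 and 66 with the covariate, and 508 and 382 with lowess of the fold change itself.

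A block of replicate numbers gave 262 genes, and 427 without the trend. The numbers do not pair the mice, since same-numbered mice at 16 and 4 weeks deviated with correlations of -0.479 to 0.187.

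The difference in spread of signal lay between -0.223 and -0.108 with 1 mouse left out, past p = 0.05 only without mouse 1 at 16 weeks (exact permutation test, p = 0.0238).

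Of the 101 genes named that were called with the trend, 35 were still called in the 10 arrays alone, 46 with the covariate and 83 without the trend. Signs turned for Phgdh (0.30 without the trend, 0.31 with cyclic loess, 0.14 with quantile normalization, and -0.0791 for the mean of probe sets without the trend), for Klk1 (1.48 without the trend, 1.55 with cyclic loess, 0.51 with the covariate, 0.69 with quantile normalization, 0.10 with the mean of probe sets, 0.0165 with array weights, and -0.21 to 0.23 with 1 mouse left out) and for Egf (0.61, 0.61, 0.72 and 0.44 under the first 4 of these, and -0.47 to 0.0603 with 1 mouse left out). With the mean of probe sets Rora was at -0.0269 (-0.0191 without the trend), and without the trend Calr was at 0.0686, Magt1 at 0.14 and Tef at 0.0450.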

Other observations

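Some actin and autophagy genes were lower at 16 weeks. Of 30 genes of focal adhesions and stress fibers 4 were lower (13.3%, against 3.12% of all genes, median -0.51, and -0.23 without the trend), Rac1, a GTPase of membrane ruffles, Myl9, a myosin light chain, Arhgap5 and Septin7. Of 26 polyamine and autophagy genes 5 were called, all lower (19.2%, median -0.55, and -0.23 without the trend). Besides Azin1 these were Srm, spermidine synthase (-1.48), Atg3 (-1.57), which lipidates proteins such as Gabarap (-1.48) on autophagosome membranes, and Sqstm1, an autophagy receptor (-1.40). In each of these lists 1 gene was lower whichever mouse was left out, and with the spread as covariate 1 of the first and 2 of the second were lower (medians -0.11 and 0.01).

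The largest decrease by size was not called, and is named after its value was seen. Obp1a, an odorant binding protein, was at -4.24 ± 1.66 (SE, limma adjusted p = 0.131), and Dcpp3, a relative of Dcpp1, at -2.75 ± 1.46 (limma adjusted p = 0.253).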
